A study of Sus scrofa with 10 samples.

Results

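Progesterone receptor genes, nuclear and membrane, were examined in the ovaries of 10 gilts. The set was named gene by gene and holds PGR, PGRMC1, PGRMC2, PAQR5, PAQR7 and PAQR8. Each symbol was matched to the protein-coding locus that carries it, which gave 1 locus per symbol, so that 6 of 6 genes were found among 19972 protein-coding loci of 43499 loci in all. All 6 passed the limit for testing, a mean over all pigs of 0.1 FPKM or more, as did 15170 protein-coding loci. FPKM is the number of fragments per kilobase of transcript, scaled to the total of mapped fragments in the library.

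The ovaries were sequenced with 1 library per pig, 5 from the control group and 5 from the rpFSH treatment group, to follow the response to recombinant pig follicle-stimulating hormone (rpFSH). Every pig of both groups had been fed altrenogest, a synthetic progestin, in a daily dose of 20 mg that began at 210 days of age, lasted 18 days and was followed by 2 days without it. Each pig of the rpFSH treatment group then received an injection of 1000 IU of rpFSH, and each control pig received saline instead. The ovaries, freed of their surface follicles, were sampled when the pigs were 234 days old. Since all 10 pigs had received altrenogest, its own effect on these receptor genes cannot be measured here. Total counts were between 64873797 and 75114003 per pig.

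PGR encodes the nuclear progesterone receptor, a transcription factor that is switched on in granulosa cells around ovulation and is needed for follicle rupture. PGRMC1 and PGRMC2 encode small membrane proteins with a cytochrome b5-like domain that bind haem, and PGRMC1 takes part in sterol and cytochrome P450 metabolism and in progesterone action on granulosa and luteal cells. PAQR5, PAQR7 and PAQR8 encode the membrane progestin receptors gamma, alpha and beta, membrane proteins that bind progestins and are known to act through inhibitory G proteins.

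Several libraries stood apart in their cell type markers, which bears on the values that follow. The luteal list had 4 of 5 genes in the table under a locus of their own (STAR, CYP11A1, PTGFR and LHCGR), with CYP11A1, the enzyme that makes pregnenolone, the most abundant. Their summed FPKM was 41.5, 2540, 55.0, 19.4 and 13.2 in control replicates 1 to 5 and 1299, 28.5, 25.7, 321 and 33.4 in rpFSH replicates 1 to 5. Control replicate 2, rpFSH replicate 1 and rpFSH replicate 4 were thus far above the other 7 pigs in the sum, which STAR and CYP11A1 carried for the most part. PTGFR had the same 3 pigs at the top, but rpFSH replicate 4 at 17.8 FPKM was close to rpFSH replicate 3 at 15.4. LHCGR, which is also in the theca list, followed only in part. It was highest in rpFSH replicate 1 at 7.32 FPKM. Control replicate 2 had 2.74 and rpFSH replicate 4 had 3.75, against 4.01 in control replicate 3 and 5.18 in rpFSH replicate 2. The 6 ciliated epithelium markers, led by the axonemal dynein gene DNAH5, summed to 0.946, 20.4, 1.56, 2.66 and 39.9 FPKM in the control pigs and to 0.341, 2.02, 0.968, 0.845 and 0.941 in the rpFSH pigs, so that control replicates 5 and 2 were the high ones. The same pair of pigs was high in the 4 general epithelium markers, led by KRT8, with sums of 44.3 and 23.8 FPKM against at most 4.09 in any other pig. OVGP1, the oviductal glycoprotein gene, lies in a locus joined to WDR77 whose FPKM was 63.6 in control replicate 5, 20.6 in control replicate 2 and at most 3.12 elsewhere. Control replicate 5 also led in the 4 smooth muscle markers, of which ACTA2 was the most abundant, with a sum of 1210 FPKM. The other controls had 226, 49.7, 188 and 90.5 (replicates 1 to 4), and the rpFSH pigs had 122, 311, 267, 245 and 337. None of the markers used in these sums had a count of 0 in every pig. In whole-tissue RNA, fewer cells of a type and less RNA per cell cannot be told apart.

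Markers of ovarian cell types were summed in the same way. The 3 granulosa markers with a locus of their own (FSHR, CYP19A1 and INHA) summed to between 1.82 FPKM in control replicate 2 and 78.3 in rpFSH replicate 2, with INHA the most abundant. The 3 theca markers, led by INSL3, summed to between 4.38 FPKM in rpFSH replicate 3 and 226 in control replicate 3. The 3 oocyte markers, led by GDF9, were between 2.95 FPKM in control replicate 2 and 9.67 in rpFSH replicate 5. The granulosa and theca sums differed widely between pigs of the same group. Of the oocyte markers, GDF9 was between 2.36 and 4.92 FPKM in all 10 pigs. ZP3 was less even, from 0.592 FPKM in control replicate 2 to 5.72 in rpFSH replicate 5, and FIGLA was at most 0.355. Whether tissue other than ovary was in the samples of control replicates 2 and 5, which bears on PGR and PAQR8, was not tested. The 5 stroma markers, led by COL1A1, summed to between 132 and 819 FPKM, the 4 endothelial markers, led by VWF, to between 31.9 and 86.4, and the 3 immune markers, led by CSF1R, to between 2.47 and 8.39. Of the stroma markers 3 were higher and 2 lower in the rpFSH pigs. LUM was lower at -1.54 (unadjusted P of 0.0153, adjusted p of 0.992 by edgeR), where 3.22% of all tested loci were lower at a P under 0.05. It was highest in control replicate 5 (29.0 FPKM). Without that pig it was at -0.78 (unadjusted P of 0.0427), and without control replicates 2 and 5 at -0.67 (unadjusted P of 0.102). HBB, the erythroid marker, was between 10.3 FPKM in control replicate 4 and 114 in control replicate 5.

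**Figure D1:**
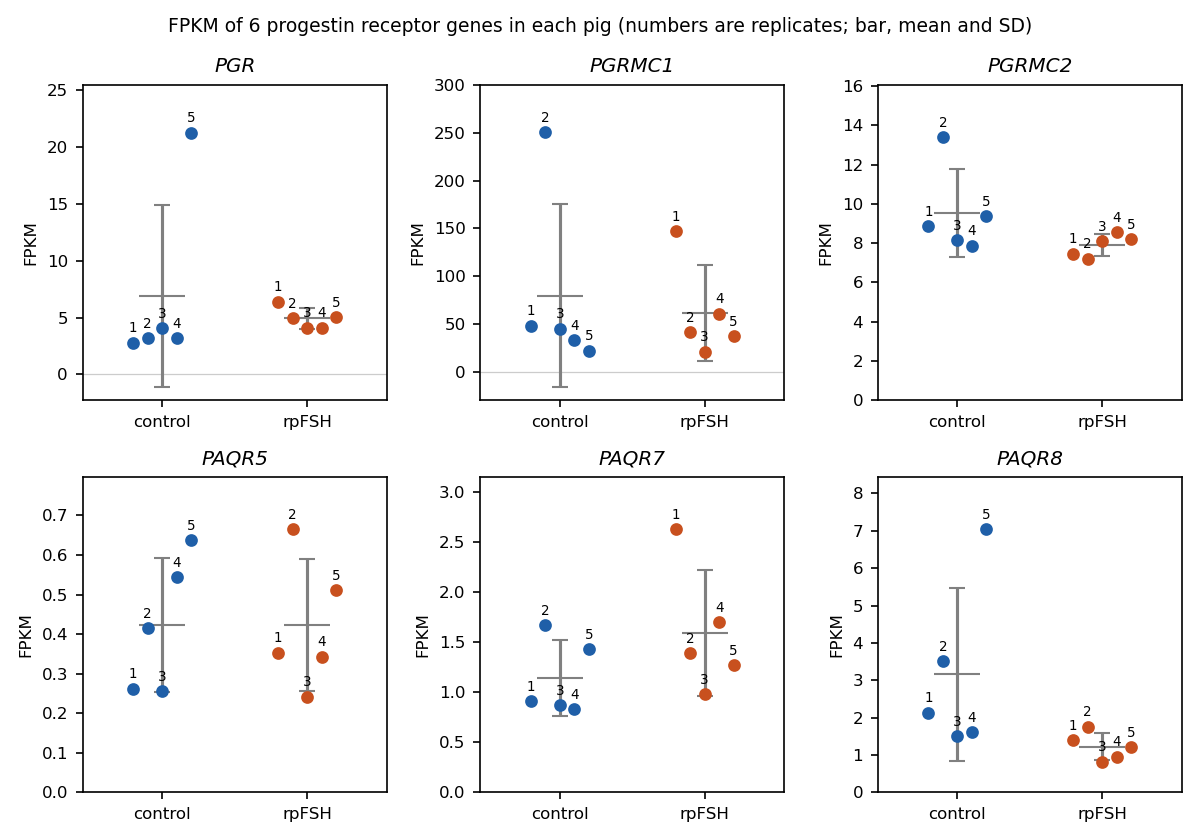
FPKM of each receptor gene (vertical axis) in the 5 control and 5 rpFSH pigs, each point being a pig labelled with its replicate number, with the mean and SD of the group in grey. Control replicate 5 stands alone in PGR at 21.2 FPKM, control replicate 2 stands alone in PGRMC1 at 251, and 4 of 5 rpFSH pigs lie below every control in PAQR8.

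The nuclear receptor comes first. PGR lies on the minus strand of chromosome 9 (32017266 to 32129221, Sscrofa11.1). Its FPKM was 2.77, 3.17, 4.07, 3.20 and 21.2 in control replicates 1 to 5, and 6.39, 4.95, 4.11, 4.09 and 5.04 in rpFSH replicates 1 to 5. Control replicate 5 was the highest of all 10 pigs, all 5 rpFSH pigs lay below it, and the other 4 controls lay below every rpFSH pig, the nearest values being 4.07 in control replicate 3 and 4.09 in rpFSH replicate 4. Group means were 6.89 ± 8.03 in the controls and 4.92 ± 0.938 in the rpFSH pigs (SD, n = 5 each). The log2 fold change, rpFSH over control, was -0.41 (SE 0.56, 95% interval -1.64 to 0.82) by edgeR's quasi-likelihood test, with an unadjusted P of 0.474 and a Benjamini-Hochberg adjusted p of 1.00. The difference was smaller than the spread between pigs.

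That value rests on a single library. Without control replicate 5 the mean of the controls was 3.30 ± 0.548 FPKM (SD, n = 4), and the log2 fold change of PGR was 0.64 (SE 0.18), the opposite direction, with an unadjusted P of 0.00554 and an adjusted p of 0.999 by edgeR. The two-sided exact permutation test on log2(FPKM + 1) gave p = 1.00 with all pigs and p = 0.0159 without control replicate 5, which is the smallest p that 5 pigs against 4 can give. Each pig was left out in turn under edgeR, whereas the exact permutation, limma and DESeq2 tests without this pig were added after seeing the values. Of all 15170 tested loci, 0.488% (74 loci) had every rpFSH pig above every remaining control. DESeq2 gave no P to PGR with all 10 pigs, since it sets aside a gene with an extreme count, and without control replicate 5 it gave an adjusted p of 0.188. Control replicate 5 is the pig with the highest smooth muscle, ciliated and general epithelium sums. With all pigs, all 4 genes of the smooth muscle list were lower in the rpFSH pigs, 0 with an unadjusted P under 0.05 in edgeR, and their median log2 fold change was -0.60. Without control replicates 2 and 5 the median was 0.97, and the unadjusted P in edgeR was 0.00511 for DES and 0.0711 for CNN1. Among the 9 pigs other than control replicate 5 the list had a median over its 4 genes of 1.23, with 2 genes (DES and CNN1) at an unadjusted P under 0.05 in edgeR and a higher level in the rpFSH pigs, as had 2.47% of all tested loci in those 9 pigs. Over these 9 pigs, PGR and the smooth muscle sum had a Pearson's r of 0.34 (exact permutation p = 0.375) and a Spearman's rho of 0.52 (exact permutation p = 0.162), with adjusted values of 0.412 and 0.243 over the 3 such relations computed, and r was -0.28 once control replicates 2 and 4 were left out as well. The part of these cell type markers in the level of PGR was not tested.

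The membrane-associated receptors of the PGRMC pair differed from each other in spread. PGRMC1 (chromosome X, 97735307 to 97751097, plus strand) had an FPKM of 48.2, 251, 45.2, 32.9 and 21.9 in control replicates 1 to 5, and 147, 41.5, 21.2, 60.7 and 37.4 in rpFSH replicates 1 to 5. The 3 highest pigs were control replicate 2, rpFSH replicate 1 and rpFSH replicate 4, the same 3 pigs and the same order as in the luteal sum, and apart from control replicate 2 the controls lay within the range of the rpFSH pigs. Group means were 79.7 ± 96.0 and 61.6 ± 49.9 (control and rpFSH, SD, n = 5 each), and the log2 fold change was -0.31 (SE 0.71, unadjusted P of 0.669, adjusted p of 1.00 by edgeR). Without control replicate 2 it was 0.79 (SE 0.51, unadjusted P of 0.150), and without rpFSH replicate 1 it was -0.90 (SE 0.70, unadjusted P of 0.229). With all 3 pigs of the highest luteal sums left out, an alternative chosen after seeing the data, it was -0.05 (SE 0.33). In the 7 pigs that remained, PGRMC1 and the luteal sum had a Pearson's r of 0.77 (exact permutation p = 0.0419) and a Spearman's rho of 0.82 (exact permutation p = 0.0341). Adjusted over the 3 relations of this kind that were computed (PGR with smooth muscle, PGRMC1 with luteal and PAQR8 with ciliated epithelium markers) the values were 0.126 and 0.102, and r was 0.59 without the 2 pigs farthest from the median of the luteal sum, control replicates 3 and 5. The part of luteal tissue in the level of PGRMC1 was not tested.

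PGRMC2 (chromosome 8, 96692823 to 96711286, plus strand) was the steadiest of the 6 genes in FPKM, with a highest value 1.86 times the lowest. Its FPKM was 8.85, 13.4, 8.15, 7.86 and 9.38 in the control pigs and 7.45, 7.21, 8.11, 8.57 and 8.21 in the rpFSH pigs. Control replicate 2 was the highest pig, 2 rpFSH pigs (replicates 1 and 2) were below every control, and the remaining values of both groups overlapped. The log2 fold change was -0.19 (SE 0.15, 95% interval -0.53 to 0.15), with an unadjusted P of 0.235 and an adjusted p of 1.00 by edgeR, and without control replicate 2 it was -0.04 (SE 0.11).

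The 3 membrane progestin receptors were the least abundant of the set. PAQR8, or receptor beta, on chromosome 7 (46104946 to 46234276, plus strand), had an FPKM of 2.14, 3.51, 1.50, 1.60 and 7.04 in control replicates 1 to 5 and 1.40, 1.75, 0.822, 0.955 and 1.21 in rpFSH replicates 1 to 5. Control replicates 5 and 2 were the high pigs, 4 of 5 rpFSH pigs were below every control, and rpFSH replicate 2 was above control replicates 3 and 4, so that the groups overlapped. Group means were 3.16 ± 2.31 and 1.23 ± 0.370 (control and rpFSH, SD, n = 5 each). The log2 fold change was -1.28 (SE 0.43, 95% interval -2.23 to -0.33), with an unadjusted P of 0.0131 and an adjusted p of 0.992 by edgeR. All 5 rpFSH pigs were below the control median, and the two-sided exact permutation test on log2(FPKM + 1) gave p = 0.0317. Because the adjusted p was over 0.05, the lower level did not pass the test over all loci.

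The size of the PAQR8 difference depended on the same controls. Without control replicate 5 the log2 fold change was -0.75 (SE 0.30, unadjusted P of 0.0331 by edgeR, exact permutation p = 0.0635), and without control replicates 2 and 5 it was -0.43 (SE 0.26, unadjusted P of 0.142 by edgeR). Both pigs had the highest ciliated and general epithelium sums. The ciliated list had 6 of 6 genes lower in the rpFSH treatment group, 4 of them with an unadjusted P under 0.05 by edgeR (3 without control replicate 5), and a median log2 fold change of -3.84, which was -2.50 without control replicate 5 and -0.43 without control replicates 2 and 5. All 4 general epithelium markers were lower with an unadjusted P under 0.05, with a median of -2.52, but 0 of 4 had such a P without control replicate 5, where the median was still -1.78, and the median was 0.24 without both pigs. Of all tested loci, 3.22% were lower at that P with all pigs and 2.31% without control replicate 5. In the 8 other pigs PAQR8 and the ciliated sum had a Pearson's r of 0.34 (exact permutation p = 0.412) and a Spearman's rho of 0.45 (exact permutation p = 0.267), with adjusted values of 0.412 and 0.267 and an r of 0.06 after control replicate 4 and rpFSH replicate 2 were also left out. The part of epithelial tissue in the PAQR8 difference was not tested.

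**Figure D2:**
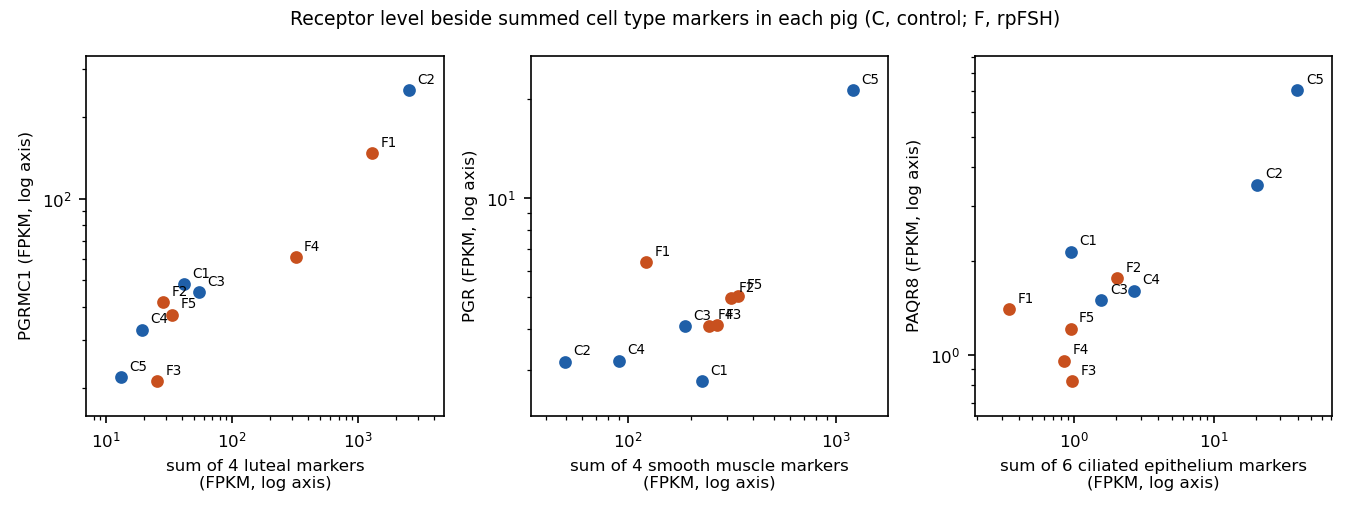
FPKM of PGRMC1, PGR and PAQR8 (vertical log axes) against the summed FPKM of the luteal, smooth muscle and ciliated epithelium markers (horizontal log axes), each point being a pig (C, control; F, rpFSH; the digit is the replicate). The pigs with the highest PGRMC1 have the highest luteal sums, up to 2540 FPKM, and control replicate 5 is at the upper right in the PGR and PAQR8 panels.

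PAQR7, or receptor alpha, on chromosome 6 (83318411 to 83329669, minus strand), had an FPKM of 0.910, 1.67, 0.873, 0.829 and 1.43 in the control pigs and 2.63, 1.39, 0.979, 1.70 and 1.27 in the rpFSH pigs. The highest pig was rpFSH replicate 1, all 5 rpFSH pigs were above the control median of 0.910, and 2 of them were above every control. Those 2, rpFSH replicates 1 and 4, and the highest control, replicate 2, were also the pigs with the highest luteal sums. The part of luteal tissue in the level of PAQR7 was not tested. Group means were 1.14 ± 0.383 and 1.59 ± 0.634 FPKM (control and rpFSH, SD, n = 5 each), and the log2 fold change was 0.55 (SE 0.31, 95% interval -0.14 to 1.23, unadjusted P of 0.109, adjusted p of 1.00 by edgeR). It was 0.31 (SE 0.28) without rpFSH replicate 1 and 0.94 (SE 0.32, unadjusted P of 0.0173, adjusted p of 0.695 by edgeR) without control replicates 2 and 5. That last setting kept rpFSH replicates 1 and 4, and the luteal list had a median log2 fold change of 2.26 there against -0.34 with all pigs. Without these 2 rpFSH pigs as well, PAQR7 was at 0.57 (SE 0.24, unadjusted P of 0.0521 by edgeR). Without control replicate 2 and rpFSH replicates 1 and 4 it was at 0.36 (SE 0.29, unadjusted P of 0.248 by edgeR). Both alternatives were chosen after seeing the data.

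PAQR5, or receptor gamma, on chromosome 1 (167154627 to 167231034, plus strand), had the lowest counts of the set, 24 to 75 per pig. Its FPKM was 0.262, 0.416, 0.255, 0.544 and 0.637 in the control pigs and 0.353, 0.665, 0.242, 0.343 and 0.511 in the rpFSH pigs. The highest and the lowest value were both in the rpFSH treatment group, and the groups overlapped throughout. The log2 fold change was 0.08 (SE 0.40, 95% interval -0.81 to 0.97, unadjusted P of 0.849, adjusted p of 1.00 by edgeR).

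Across the 6 genes, edgeR gave an adjusted p under 0.05 to 0, against 0 of the 15170 tested loci (0%). At an unadjusted P under 0.05 it gave 722 loci, PAQR8 being the 1 member among them, while DESeq2 gave 86 loci an adjusted p under 0.05 and limma on log2(FPKM + 1) gave 0. With all 10 pigs, DESeq2 gave none of the 5 members that received an adjusted p a value under 0.05, the lowest being 0.240 for PAQR8. By the limits of the study's methods, an unadjusted P under 0.05 and a log2 fold change past 1 in size, 1 of 6 genes was called (PAQR8), against 3.09% of the tested loci (468 loci, 77 higher and 391 lower in the rpFSH pigs). The study applied its limits to Ballgown's test on FPKM, which was not run here, and in this comparison they were applied to edgeR's P and fold change. The loci past these limits were 151 higher and 227 lower without control replicate 5, and without control replicates 2 and 5 they were 306 higher and 117 lower. A single gene of 6 is too few to set apart from the share of 3.09%. Without control replicate 5, PAQR8 was no longer called and the number of members was 0. The median log2 fold change of all tested loci was -0.01.

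**Figure D3:**
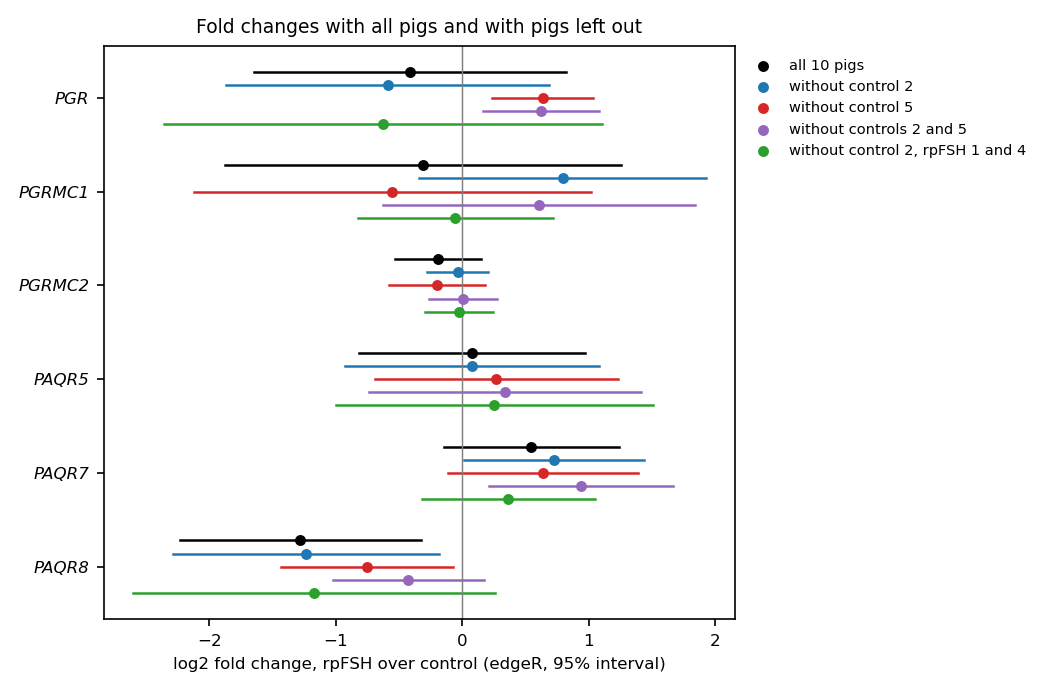
Log2 fold change of each gene, rpFSH over control (horizontal axis, edgeR, points with 95% intervals), with all 10 pigs and with pigs left out. PGR moves from -0.41 to 0.64 without control replicate 5 and PGRMC1 from -0.31 to 0.79 without control replicate 2, while PAQR8 stays negative at each of the settings drawn.

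The order of the levels was compared in FPKM, which is per length of transcript. Mean FPKM over the 10 pigs was 70.7 ± 72.8 for PGRMC1, 8.72 ± 1.76 for PGRMC2, 5.90 ± 5.49 for PGR, 2.19 ± 1.86 for PAQR8, 1.37 ± 0.548 for PAQR7 and 0.423 ± 0.158 for PAQR5 (SD, n = 10 each). PGRMC1 was above PGRMC2 in 10 of 10 pigs, by a mean difference in log2(FPKM + 1) of 2.44 (two-sided exact sign-flip permutation test within pigs, p = 0.00195, adjusted p = 0.00488 over the 5 pairs of neighbours). That p is the smallest the test can give with 10 pigs. PGRMC2 was above PGR in 9 of 10 pigs, by 0.70 (exact p = 0.0273, adjusted p = 0.0342), the exception being control replicate 5. PGR was above PAQR8 in 9 of 10 pigs, by 1.04 (exact p = 0.00391, adjusted p = 0.00651), with control replicate 2 the exception, and PAQR7 was above PAQR5 in 10 of 10, by 0.71 (exact p = 0.00195, adjusted p = 0.00488). Over all pigs PAQR8 and PAQR7 did not differ beyond their spread, with PAQR8 the higher in 6 of 10 and a mean difference of 0.31 (exact p = 0.178, adjusted p = 0.178). Their order was not the same in both groups, since PAQR8 was the higher in 5 of 5 controls, by 0.82 ± 0.52 in log2(FPKM + 1), and in 1 of 5 rpFSH pigs, where the mean difference was -0.20 ± 0.33 (SD, n = 5 each). This difference between the groups was not tested.

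**Figure D4:**
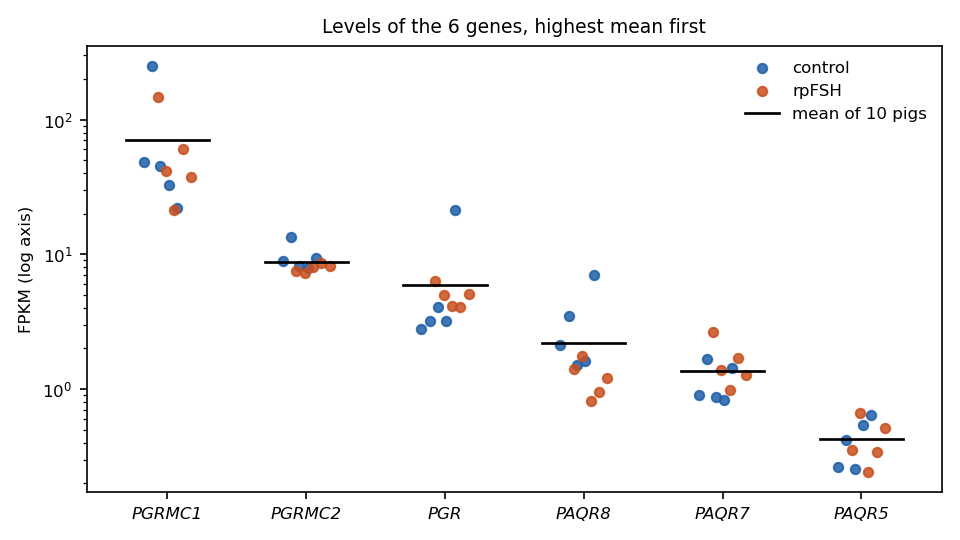
FPKM of the 6 genes in each pig (log axis), highest mean first, with the mean of 10 pigs as a black line. Means run from 70.7 FPKM for PGRMC1 to 0.423 for PAQR5, and the points of PAQR8 and PAQR7 overlap.

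Of the summed FPKM of the 6 genes, PGRMC1 made up 71.9% ± 15.8 over the 10 pigs (SD, n = 10), from 35.6% in control replicate 5 to 91.9% in control replicate 2. In control replicate 5 PGR made up 34.4% and PAQR8 11.4%, whereas PGR was at most 11.6% and PAQR8 at most 3.42% in any other pig. The mix of receptor transcripts in control replicate 5 therefore differed from that of the other 9 pigs in both of these genes at once. Against all tested loci, the mean FPKM of PGRMC1 was at percentile 99.3, PGRMC2 at 88.9, PGR at 79.6, PAQR8 at 43.0, PAQR7 at 30.8 and PAQR5 at 14.5. The spread between pigs was also uneven, since the SD of log2(FPKM + 1) of PGRMC1 was at percentile 98.3 of the tested loci that averaged 1 FPKM or more, PGR at 93.6, PAQR8 at 90.5, PAQR7 at 57.9 and PGRMC2 at 37.6.

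Relations between the genes were examined in all 15 pairs over the 10 pigs, on log2(FPKM + 1) with permutation tests. After Benjamini-Hochberg adjustment over the 15 pairs, 0 had an adjusted p under 0.05 for Pearson's r or for Spearman's rho, and 1 pair had an unadjusted p under 0.05 for r. This was PGRMC1 with PAQR7, with r = 0.64 (permutation p = 0.0482, adjusted p = 0.387) and rho = 0.53 (permutation p = 0.123, adjusted p = 0.812). It rested on control replicate 2 and rpFSH replicate 1, without which r was 0.18. PGR and PAQR8 had r = 0.64 (permutation p = 0.0895, adjusted p = 0.387), rho = -0.16 (permutation p = 0.658, adjusted p = 0.813) and, without control replicate 5 and rpFSH replicate 1, r = -0.55. Of these 2 pigs, control replicate 5 was the highest in both genes (21.2 and 7.04 FPKM). The other, rpFSH replicate 1, was high in PGR (6.39 FPKM) but not in PAQR8 (1.40 FPKM). With each group's mean taken off, 3 pairs had an unadjusted p under 0.05 and 0 an adjusted p under 0.05. These were PGR with PAQR8 (r = 0.82, permutation p = 0.0130, adjusted p = 0.116), PGRMC1 with PAQR7 (r = 0.74, permutation p = 0.0155, adjusted p = 0.116) and PAQR5 with PAQR8 (r = 0.63, permutation p = 0.0440, adjusted p = 0.220). All 10 pigs were kept here, and these values were not computed with pigs left out. Before the group means were taken off, PAQR5 with PAQR8 had r = 0.48, and 0.18 without control replicate 5 and rpFSH replicate 2.

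For each gene, the 3 named protein-coding loci with the most similar pattern over the 10 pigs were listed by Pearson's r of log2(FPKM + 1), as a description, among 8807 candidate loci averaging 1 FPKM or more (8808 for PAQR5). PGRMC1 was closest to PANK3 (r = 0.98, and 0.95 without control replicate 2 and rpFSH replicate 1), RDH11 (0.98 and 0.92) and S1PR5 (0.97 and 0.95). PANK3 is a pantothenate kinase of coenzyme A synthesis and RDH11 a retinol dehydrogenase. These likenesses changed little without the 2 extreme pigs. PGR was closest to RRAS (r = 0.95), VASP (0.95) and CSPG4 (0.95), which without control replicate 5 and rpFSH replicate 1 had r of 0.83, 0.83 and 0.40. PAQR8 was closest to FAM189A2 (0.96), MLF1 (0.96) and the desmosomal plakophilin PKP2 (0.95), with 0.72, 0.66 and 0.73 without control replicates 2 and 5. PGRMC2 was closest to GBE1, the glycogen branching enzyme (0.97), BCAM (0.96) and PIGR (0.96), with 0.74, 0.61 and 0.65 without the same pair of pigs. For the less abundant receptors, PAQR7 was closest to ZNRF1, PARP3 and ARAF (r = 0.93 each, and 0.92, 0.84 and 0.84 without control replicate 4 and rpFSH replicate 1). PAQR5 was closest to the chemokine gene CXCL8 (0.93), FKBP9 (0.89) and CAB39L (0.85), with 0.94, 0.78 and 0.70 without control replicate 5 and rpFSH replicate 2.

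Other loci of the table overlap the spans of 3 of the 6 genes. A plus-strand locus of chromosome 9 (32125344 to 32312018), which the table also names PGR but gives no gene type, overlaps the PGR locus by 3878 bp. Its FPKM was 2.03, 1.13, 2.02, 1.88 and 1.85 in the control pigs and 1.81, 2.05, 2.76, 1.78 and 2.41 in the rpFSH pigs. Control replicate 5, which was extreme in PGR, was not extreme in this neighbour, and the groups overlapped. A second plus-strand locus inside PGR (32022117 to 32025504) had between 0 and 1629 counts per pig, and another had 0 counts in every pig. PGRMC1 is overlapped by 5197 bp of a protein-coding minus-strand locus, ENSSSCG00000012627 (chromosome X, 97745901 to 97781687). Its FPKM was 5.05 in control replicate 2, 2.23 in rpFSH replicate 1, 0.949 in rpFSH replicate 4 and between 0.461 and 0.779 in the other pigs, so that it was high in the pigs in which PGRMC1 was high. PAQR8 contains 3 loci without a gene type that the table names PAQR8 as well, with FPKM between 0.260 and 2.59 over all pigs. The minus-strand locus from 46110958 to 46118631 had 0.547, 0.351, 0.529, 1.02 and 0.632 FPKM in the control pigs and 0.451, 0.413, 0.315, 0.260 and 0.448 in the rpFSH pigs, with a log2 fold change of -0.66 (SE 0.29, unadjusted P of 0.0429, adjusted p over 0.05 by edgeR over all loci), the same direction as PAQR8 but with control replicate 4 the highest. The other 2 had log2 fold changes of -0.02 and -0.12. The study's methods describe a second strand labelled with dUTP, as in libraries that keep strand. The sources used here do not state whether the counting used strand, and without it reads of these overlapping loci cannot be told apart from those of the receptor.

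The receptors' relatives and partners were taken from lists, counting genes that had a locus of their own and passed the limit for testing. With edgeR, 0 genes of any of the 9 lists had an adjusted p under 0.05, and among all tested loci 1.54% had an unadjusted P under 0.05 with a higher level in the rpFSH pigs and 3.22% with a lower one. This uneven split was not seen without control replicate 5, where the shares were 2.47% and 2.31%. Of the relatives of the membrane progestin receptors, 4 of 6 could be used, and 0 of these had an unadjusted P under 0.05, with a median log2 fold change of 0.10, which was -0.07 without control replicate 5. PAQR9 had an FPKM of 21.8 in control replicate 2, 20.0 in rpFSH replicate 1, 3.51 in rpFSH replicate 4 and no more than 0.185 in the other 7, again the pigs of the highest luteal sums. ADIPOR2, an adiponectin receptor of the same family, had 4.40 ± 0.674 and 4.38 ± 0.580 (control and rpFSH, SD, n = 5 each).

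The list of relatives and partners of the PGRMC proteins had 8 of 8 genes tested, 0 with an unadjusted P under 0.05 and a median log2 fold change of -0.04, or 0.28 without control replicates 2 and 5. TMEM97, the sigma-2 receptor, had an FPKM of 19.1 ± 7.64 and 24.8 ± 21.2, and SCAP, the escort protein of the sterol-sensing SREBP pathway, had 10.3 ± 11.3 and 15.03 ± 21.6 (control and rpFSH, SD, n = 5 each). The highest pigs were rpFSH replicate 1 and control replicate 2, in which TMEM97 reached 61.4 and 29.2 and SCAP 53.5 and 30.5, and the lowest control in both genes was control replicate 5 (7.81 and 4.24). Among the genes of progesterone synthesis and metabolism, 6 of 10 were tested, 0 had an unadjusted P under 0.05 and the median was 0.26, which was -0.02 without control replicate 5 and 1.09 without control replicates 2 and 5. The last of these settings left out control replicate 2 but kept rpFSH replicates 1 and 4. There STAR was at 4.91 (unadjusted P of 0.0347, adjusted p of 0.728 by edgeR), and the median of the luteal list was 2.26 against -0.34 with all pigs. STAR, which brings cholesterol into mitochondria, was at 532 FPKM in control replicate 2, 448 in rpFSH replicate 1, 121 in rpFSH replicate 4 and no more than 5.67 elsewhere. CYP11A1 was at 1758, 787 and 178 in these pigs and at most 34.4 in the others. PGRMC1, PAQR9, STAR and CYP11A1 thus had the same 3 pigs at the top. PAQR7 had them at the top too, but less far above the rest. Its FPKM was 1.67 in control replicate 2, 2.63 in rpFSH replicate 1, 1.70 in rpFSH replicate 4 and at most 1.43 elsewhere.

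The chaperones that hold nuclear steroid receptors ready for hormone had 8 of 10 genes tested, 0 with an unadjusted P under 0.05 and a median log2 fold change of -0.07. HSPA8 and HSP90AB1, both heat shock proteins, had an FPKM of 81.5 ± 19.6 and 61.1 ± 10.5 in the controls and 67.2 ± 33.7 and 61.8 ± 13.2 in the rpFSH pigs (SD, n = 5 each). Of the coregulators, 7 of 10 were tested, 0 had an unadjusted P under 0.05 and the median was 0.12, with EP300 and CREBBP, a pair of histone acetyltransferases, at 8.61 ± 0.907 and 8.02 ± 1.64 FPKM in the controls and 8.90 ± 0.484 and 8.40 ± 1.38 in the rpFSH pigs. The other steroid receptors had 4 of 5 genes tested, 0 with an unadjusted P under 0.05 and a median of 0.07, or -0.07 without control replicates 2 and 5. NR3C1, the glucocorticoid receptor, had an FPKM of 4.38 ± 0.523 and 4.13 ± 1.48 (control and rpFSH, SD, n = 5 each). ESR1, the oestrogen receptor alpha, shares its locus with CCDC170, and this joined locus was at 6.15 FPKM in control replicate 5 and at most 3.58 in the other pigs. The list of inhibitory G proteins and MAP kinases had 2 of 5 genes with a locus of their own, GNAI3 and GNAI1, with log2 fold changes of -0.01 (SE 0.12) and 0.03 (SE 0.26).

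The list of genes induced by PGR around ovulation had 10 of 15 genes tested, with a median log2 fold change of -0.01, or 0.52 without control replicates 2 and 5. Of all tested loci, 1.54% were higher and 3.22% lower in the rpFSH pigs at an unadjusted P under 0.05 by edgeR. In this list 1 gene had an unadjusted P under 0.05 with a higher level in the rpFSH pigs and 0 with a lower level. This was ADAMTS1, a secreted protease that cleaves versican, with an FPKM of 7.13, 5.15, 12.9, 5.64 and 6.55 in the control pigs and 8.41, 14.6, 14.0, 13.7 and 17.3 in the rpFSH pigs. Control replicate 3 was the high control, rpFSH replicate 1 was the low treated pig, and the other 4 rpFSH pigs were above every control. The log2 fold change of ADAMTS1 was 0.93 (SE 0.29, unadjusted P of 0.00863, adjusted p of 0.992 by edgeR), and without control replicates 2 and 5 it was 0.74 with an unadjusted P of 0.0509. Without control replicate 5 alone, both ADAMTS1 and ZBTB16 were higher at an unadjusted P under 0.05 by edgeR, as were 2.47% of all tested loci. EPAS1, a hypoxia-inducible factor, had 21.8 ± 3.76 and 23.7 ± 4.30 FPKM, and CTSL, a lysosomal protease, had 18.7 ± 31.7 and 7.26 ± 5.77 (control and rpFSH, SD, n = 5 each), with 75.2 in control replicate 4.

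The list of genes that respond to progestins and glucocorticoids had 7 of 7 genes tested, all 7 with a log2 fold change above 0 with all pigs (48.6% of all tested loci were above 0), although TSC22D3 was at 0.02 (SE 0.23) and its mean FPKM was lower in the rpFSH pigs, a median of 0.32 and 0 with an unadjusted P under 0.05. Without control replicate 5 the median was 0.51, 2 genes had an unadjusted P under 0.05 (ZBTB16 and PER1), against 2.47% of all tested loci in that direction, and TSC22D3 and FKBP5 were below 0. Without control replicates 2 and 5 the median was 0.47 and the unadjusted P of ZBTB16 and PER1 in edgeR was 0.0563 and 0.0900. TSC22D3 and FKBP5, both targets of the glucocorticoid receptor, had an FPKM of 7.42 ± 2.17 and 6.81 ± 3.34 in the controls and 7.14 ± 2.04 and 7.26 ± 2.20 in the rpFSH pigs (SD, n = 5 each). ZBTB16 is counted in both of the last lists.

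**Figure D5:**
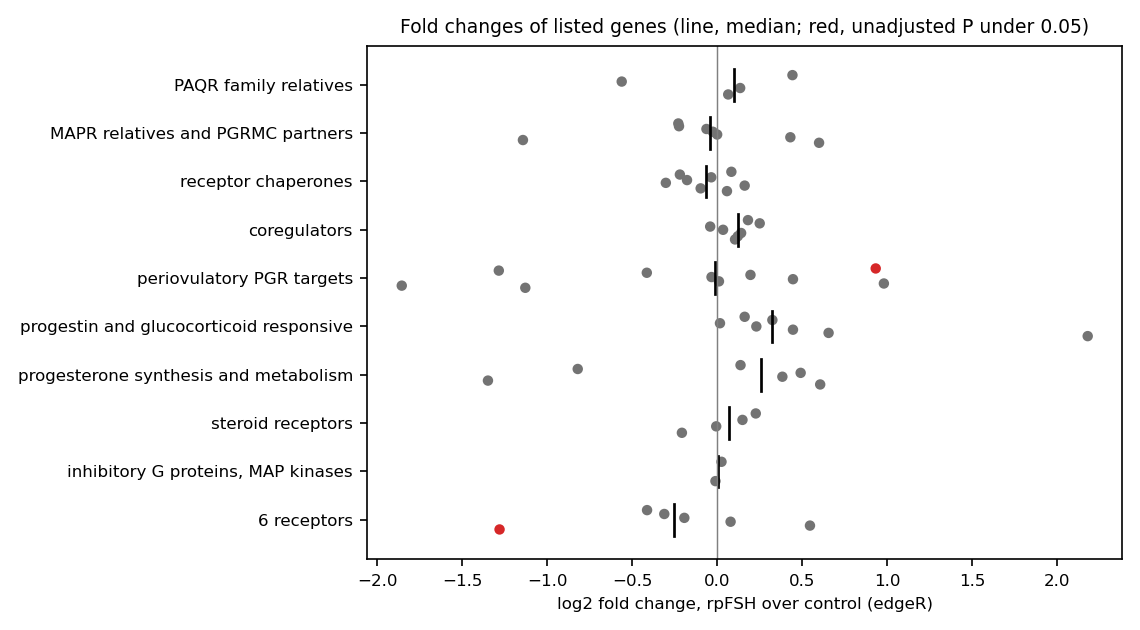
Log2 fold change, rpFSH over control (horizontal axis, edgeR), of the genes tested in each of the 9 lists of relatives, partners and targets (cell type markers are not drawn) and of the 6 receptors, each point being a gene, red where the unadjusted P was under 0.05 and with the median as a black line. PAQR8 and ADAMTS1 are the red points, at -1.28 and 0.93.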

How the data were processed

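The authors trimmed reads with Cutadapt, mapped them with Bowtie2 and HISAT2 (2.0 in the submitters' notes) to Sscrofa11.1, assembled them with StringTie (1.3.0) and deposited FPKM per locus. The submitters' notes give Bowtie 0.12.2, whereas the methods name Bowtie2. The authors also deposited whole-number counts, and how these were made is not given in the sources used here. The labels name poly(A) selection, the methods rRNA removal.

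Counts were tested with edgeR 4.0.16 (quasi-likelihood, TMM) in R 4.3.3, two-sided, on the protein-coding loci averaging 0.1 FPKM or more, with Benjamini-Hochberg adjustment over all of them. DESeq2 1.42.0 and limma 3.58.1 on log2(FPKM + 1) were alternatives, as were other scalings and filters, a pseudocount of 0.1, a block for the replicate number and fits with pigs left out. The edgeR, DESeq2 and limma steps were tested on simulated data. Single genes were compared by exact permutation, and pairs with 100000 permutations (seed 1), in Python 3.11.15 with numpy 2.4.6 and scipy 1.17.1. The floor is 3 counts, or 0.0399 to 0.0462 CPM (counts scaled to the library total), for counting error only.

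The genes and lists were chosen with earlier results of these data known. Besides the 6 receptors, those named are the 3 most similar loci of each, the list genes with an unadjusted P under 0.05 (at most 5 per list) and the 2 most abundant per list, of which 1 gene is not reported here. Genes named beyond this rule were chosen after their values were seen. List symbols were matched by gene name or Ensembl identifier, and loci that join 2 genes were left out of list counts. HSP90AA1, HSD3B1, HSD3B, AKR1C1, AKR1C4, FOXL2, PAX8, MSLN, MUC16 and HBA had no protein-coding match.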

Additional observations from a re-analysis of the deposited data

Results flagged for a closer look

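In a Dixon test of the highest and the lowest pig in each of the 12 groups of 5 (6 genes in 2 groups), 3 values, from 2 pigs, were farther from their group than the 95% critical value of 0.71 allows. Chance gives such a value in about 1 of 20 groups if values follow a normal distribution. The test was run on FPKM and was not repeated on log2(FPKM + 1). PGR was at 21.2 FPKM in control replicate 5, where the next control had 4.07. PGRMC1 was at 251 FPKM in control replicate 2, where the next control had 48.2. PGRMC2 was at 13.4 FPKM in control replicate 2, where the next had 9.38. All 3 were in the control group, which holds both of these pigs. Control replicate 2 had the highest luteal sum and control replicate 5 the highest smooth muscle and ciliated epithelium sums, and their part in these values was not tested.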

How the results depend on the processing

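With all pigs kept, PGRMC2, PAQR5, PAQR7 and PAQR8 had the same direction under every scaling, filter and tool tried. PGR turned to 0.022 with limma and a pseudocount of 0.1, and its unadjusted P was over 0.05 there. With 1 pig left out, log2 fold changes ranged from -0.62 to 0.64 for PGR, -0.90 to 0.79 for PGRMC1, -0.27 to -0.04 for PGRMC2, -0.15 to 0.27 for PAQR5, 0.31 to 0.73 for PAQR7 and -1.46 to -0.75 for PAQR8. PAQR5 turned to -0.05, -0.05 and -0.15 without control replicate 1, control replicate 3 and rpFSH replicate 2. Without control replicates 2 and 5, PGR was at 0.62, PGRMC1 at 0.61 and PGRMC2 at 0.0074. The exact permutation test of PAQR8 with all pigs (-0.77, p = 0.0317) is a single test with no adjustment over loci. The following were chosen after seeing the data. With rpFSH replicates 1 and 4 left out as well, PGR was at 0.58, PGRMC1 at -0.24 and PGRMC2 at 0.019. Without control replicate 5, PGR was at 0.64 with DESeq2 and at 0.45 with limma and with the exact permutation test.

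The replicate block gave PGR 0.15 and PGRMC1 0.060, and 190 loci past the study's rule in place of 468. Same-numbered pigs had a mean r of -0.127 across loci (-0.413 to 0.111), so they were not alike in expression. The labels state no pairing, and a check of likeness in expression cannot exclude one. The block gave 0 loci an adjusted p under 0.05.

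Loci with an adjusted p under 0.05 numbered 86 with DESeq2, 38 with DESeq2 without control replicate 5, and 0 to 1 with 1 pig left out (1 without control replicate 4 and 1 without rpFSH replicate 3). Loci past the study's rule numbered 17 and 188 with limma (pseudocounts of 1 and 0.1), 145 at a mean FPKM of at least 1, 1305 over all loci, 378 to 565 with 1 pig left out, 183 without control replicate 2 and rpFSH replicates 1 and 4, and 33 with limma without control replicate 5. Members past it numbered 0 to 1 with 1 pig left out and 0 with limma at a pseudocount of 1, and 0 in every setting without control replicate 5 or without control replicate 2 and rpFSH replicates 1 and 4. Without control replicate 2 and rpFSH replicates 1 and 4, PAQR8 was still at -1.17 (unadjusted P of 0.0943 by edgeR). It was at -1.28 with all pigs and at -0.75 without control replicate 5. In CPM without a length correction, 4 of 6 genes held their place, PGR and PGRMC2 changing places. PAQR5 has no value at a mean FPKM of at least 1. The cause of these shifts was not tested. PAQR5 had 24 to 75 counts per pig and each of the other members at least 163.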
